A study of Mus musculus with 9 samples.

Results

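The genes described here are NRF2, its partner KEAP1, antioxidant genes that NRF2 is known to switch on, and genes of glutathione supply and ferroptosis defence. They were chosen by name (Nfe2l2, Keap1, Hmox1, Nqo1, Gclc, Gclm, Txnrd1, Srxn1, Slc7a11 and Gpx4), and all 10 were found among the 55385 genes of the table. RNA-seq had been done on kidneys of C57BL/6 mice (C57BL/6J in the methods) in 3 groups with 3 libraries each. Control mice were untreated, and their replicates are numbered 2, 4 and 5. HN mice (replicates 4, 8 and 12) had hyperuricemic nephropathy, a kidney injury induced with adenine at 0.16 g/kg, together with 2.4 g/kg of potassium oxonate, every other day for 4 weeks. PEC mice (replicates 1, 2 and 3) received the same induction together with the flavonoid pectolinarigenin, given by mouth at 25 mg/kg daily over those weeks. The mice were males of 8 to 10 weeks according to the methods. The dose of pectolinarigenin comes from the methods and a figure legend rather than from the labels, since the methods also name a higher dose. Control was taken from the disease state in the labels, although the titles of these libraries speak of HN mice. No source says that each library came from its own mouse. The p-values therefore set group differences against the spread between these libraries, which may not be that between mice. The libraries held 57714111 to 81069646 counts each (median 74397038).

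NRF2 (encoded by Nfe2l2) is a transcription factor that KEAP1 marks for degradation until oxidants or electrophiles modify KEAP1. NRF2 then accumulates, pairs with small MAF proteins and binds antioxidant response elements near genes for glutathione synthesis, thioredoxin recycling, quinone reduction and haem breakdown. Glutathione in turn feeds GPX4, the enzyme that reduces lipid hydroperoxides in membranes, and loss of GPX4 activity leads to ferroptosis, an iron-dependent death to which tubule cells of the kidney are known to be sensitive. The comparisons ask how these genes differ in HN kidneys, and how they differ when pectolinarigenin is given.

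Levels are given as scaled FPKM, the FPKM (fragments per kilobase, scaled to the library total) that the authors deposited, divided by the TMM factor of the library, and values of a group follow the order of replicates above. Fold changes are log2 values fitted to the counts with edgeR, whose quasi-likelihood test gave the p-values. A gene was called where the fold change was at least 1.5 and the adjusted p at most 0.05. The scaling bears on every direction below. TMM factors were 0.819, 0.832 and 0.778 for Control, 1.15, 1.20 and 1.22 for HN, and 1.05, 1.02 and 1.05 for PEC. With library totals alone, as in the deposited FPKM, the median log2 fold change of the 21392 tested genes was 0.56 in HN against Control, -0.21 in PEC against HN and 0.40 in PEC against Control, whereas with TMM it was -0.00081, -0.015 and 0.045. The share of calls that were higher was 54.5% with TMM and 85.7% with library totals in HN against Control, 46.8% and 29.6% in PEC against HN, and 52.1% and 76.6% in PEC against Control. With upper-quartile factors the medians were 0.11 in PEC against HN and 0.20 in PEC against Control, and the shares 58.1% and 63.6%. In limma on log2(FPKM + 1), which uses the deposited FPKM, the medians were 0.35, -0.19 and 0.19 and the shares 81.9%, 28.6% and 70.7%. Gene length bore on PEC against HN as well. With TMM and a trend on gene length removed, the medians were -0.0072, 0.036 and 0.074 and the shares 53.7%, 53.1% and 55.3%.

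Some sums of marker genes differed between the groups. The 10 proximal tubule markers (Lrp2, Cubn, Slc34a1, Slc5a2, Slc5a12, Slc22a6, Slc22a8, Aqp1, Miox and Slc27a2), genes of the segment that reabsorbs most of the filtrate, summed to 3632, 3849 and 3971 for Control, 938, 859.6 and 912 for HN, and 2291, 2578 and 1752 for PEC. Of them, 9 were called lower in HN than in Control mice and 9 higher in PEC than in HN mice (7 higher and 1 lower with library totals). The other marker, Slc5a12, had a mean of 47.1 for Control, 21.2 for HN, and 9.97 for PEC, with no TMM call in either comparison. The most abundant of the 10 was Slc27a2 in Control and HN and Miox in PEC. The 10 macrophage markers (Adgre1, Csf1r, Cd68, C1qa, C1qb, C1qc, Mrc1, Fcgr1, Itgam and Lyz2) summed to 66.1, 75.8 and 67.9 for Control, 1083, 1099 and 926 for HN, and 412, 449 and 575 for PEC. All 10 rose in HN mice and 8 were called lower in PEC than in HN mice, with Lyz2 the most abundant. The 5 injured tubule markers (Havcr1, Lcn2, Krt20, Vcam1 and Sox9) summed to 7.53, 6.70 and 3.72 for Control, 468, 454 and 431 for HN, and 309, 345 and 353 for PEC, led by Havcr1 in HN and PEC and by Lcn2 in Control, and 5 were called higher in HN than in Control and 2 lower in PEC than in HN mice (3 lower with library totals). The groups did not overlap in these 3 sums. In bulk kidney, fewer cells of a type and less RNA per cell cannot be told apart.

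The 5 erythroid genes (Hba-a1, Hba-a2, Hbb-bs, Hbb-bt and Alas2), which include those of haemoglobin, summed to 415, 395 and 656 for Control, 78.6, 60.2 and 43.8 for HN, and 301, 379 and 313 for PEC, with Hba-a1 the most abundant in Control and HN and Hbb-bs in PEC, and 5 of 5 were called lower in HN and 5 of 5 higher in PEC than in HN mice. The 5 adipocyte markers (Adipoq, Plin1, Lep, Cidec and Retn) summed to 5.29, 0.156 and 0.0643 for Control, 0.235, 0.324 and 9.75 for HN, and 0.210, 0.157 and 113 for PEC. Their sum was high in PEC replicate 3, where Adipoq reached 58.5, lower in HN replicate 12 and Control replicate 2, and near 0 elsewhere, with Adipoq itself at 0 in 4 libraries. The RNA protocol in the labels speaks of an adipose type, whereas the tissue label is kidney. Mitochondrial genes held 13.3, 12.9 and 16.3% of counts in Control, 6.01, 6.22 and 6.34% for HN, and 12.99, 10.3 and 13.6% for PEC. Ribosomal RNA genes held 0.117, 0.682 and 0.119% of counts in PEC mice and 0.00163 to 0.00283% in the libraries of the other groups. The part of any of these differences in the results below was not tested.

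**Figure D1:**
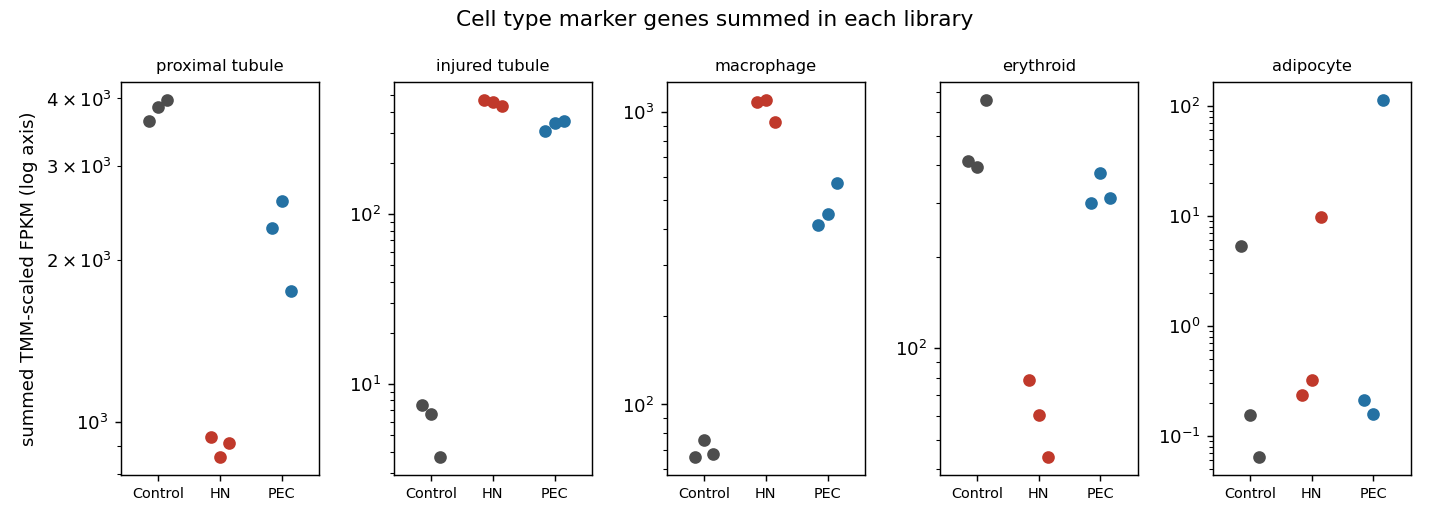
Summed TMM-scaled FPKM (log axis) of the marker genes of 5 cell types in each of 9 libraries, with Control in grey, HN in red and PEC in blue and 1 point per library. Proximal tubule and erythroid sums are lowest in HN mice, injured tubule and macrophage sums are highest there, and the adipocyte sum stands out at 113 in PEC replicate 3.

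All 10 genes passed the filter on low counts. In HN against Control mice, 4 of 10 were called, against 32.4% of all tested genes, with Slc7a11 higher and Hmox1, Gclc and Gpx4 lower. Over all tested genes, higher calls made up 17.7% and lower calls 14.7%. In PEC against HN mice, Gpx4 was the only 1 of 10 called, and it was higher, against 28.7% of all tested genes called, 13.4% higher and 15.3% lower. In PEC against Control mice, 4 of 10 were called, with Slc7a11 higher and Hmox1, Gclc and Txnrd1 lower, against 36.4% of all tested genes, 18.9% higher and 17.4% lower. With library totals the 10 genes gave 2 higher and 1 lower calls in HN against Control, 1 higher and 1 lower in PEC against HN, and 1 higher in PEC against Control. The TMM counts in both comparisons with Control were near the share of all genes. Leaving out 1 library changed the number called in all 3 comparisons. In HN against Control it was 7 without Control replicate 5 and 3 without HN replicate 12. It was 5 there without Control replicate 2, Control replicate 4 or HN replicate 4. In PEC against HN it was 2 without Control replicate 4, Control replicate 5 or HN replicate 8. In PEC against Control it was 2 without Control replicate 2 or PEC replicate 3, and 1 without PEC replicate 1. It was 3 there without Control replicate 5, HN replicate 4, HN replicate 8, HN replicate 12 or PEC replicate 2. Without PEC replicate 3, where adipocyte markers were high, 4 genes were called in HN against Control and 1 in PEC against HN. The median log2 fold change of the 10 genes was -0.68, 0.16 and -0.36 in the 3 comparisons, beside -0.00081, -0.015 and 0.045 for all tested genes. With library totals it was -0.13, -0.046 and -0.0048, beside 0.56, -0.21 and 0.40, so that its sign in PEC against HN depends on the scaling. These comparisons share libraries, the HN libraries being in the first and the second and the Control libraries in the first and the third, so that their values are not independent of each other.

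**Figure D2:**
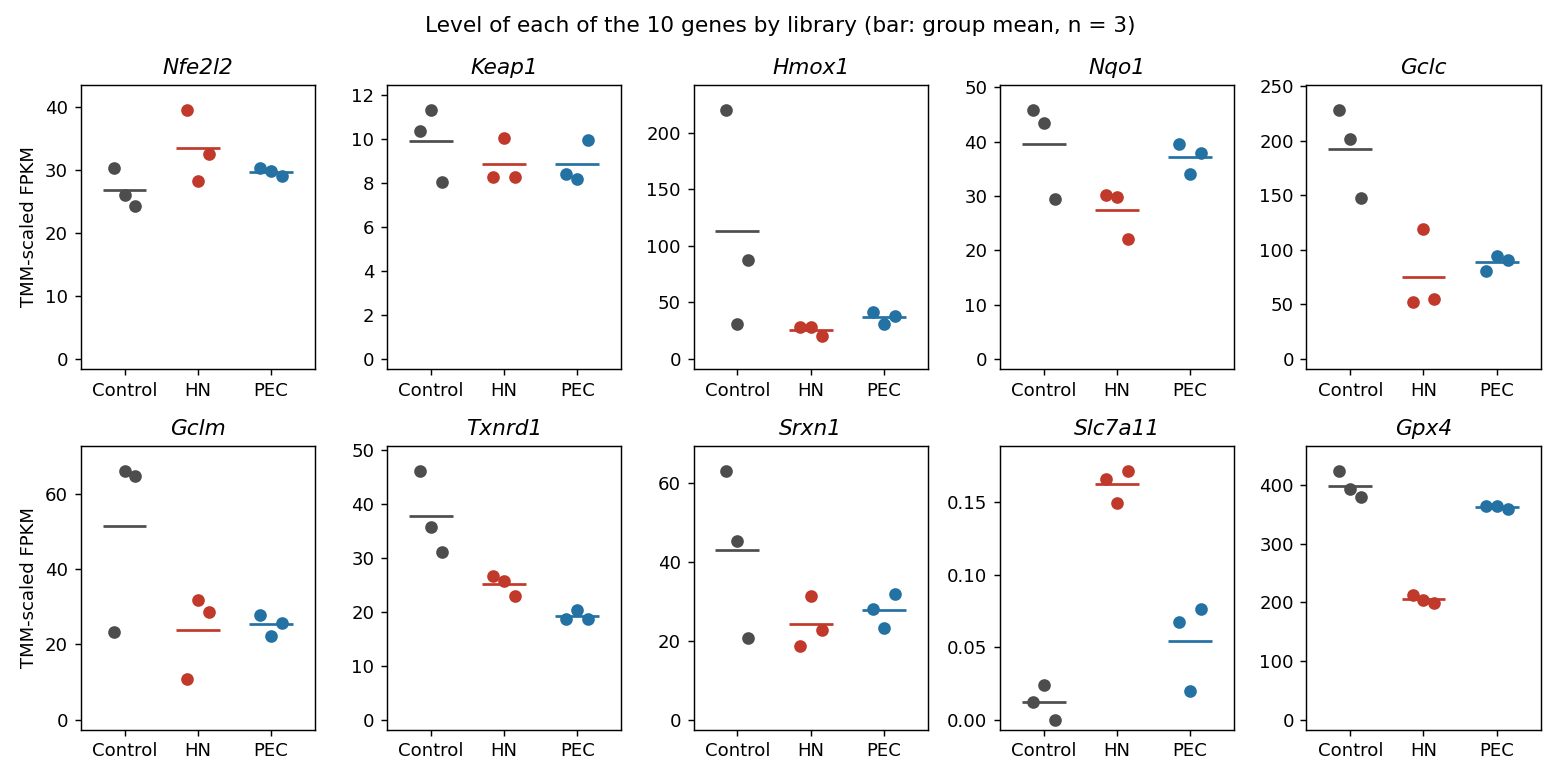
TMM-scaled FPKM of the 10 genes in each library, with Control in grey, HN in red and PEC in blue, points for libraries and bars for group means (n = 3), each panel on its own linear axis. Gpx4 is between 199.8 and 214 in the HN libraries and between 359 and 425 in the others, and Hmox1 is spread from 30.7 to 220.0 within Control.

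Antioxidant response elements were searched in the promoters because most of these genes are named as NRF2 targets. The core searched was TGACNNNGC on both strands (GCNNNGTCA on the other), in RefSeq promoters of GRCm38.p6 with 250 bases before and 50 after the start site. Of the 10 genes, 8 matched the table, with 13 promoters, and Hmox1 and Gclc were not among them. The core was in 4 of the 13 promoters, each of another gene, and in 12.4% of all 32851 promoters. The matches are shown because such elements are how NRF2 is known to reach its targets, with the core in capitals and read in the direction of transcription. They lie at chr2:75704885-75704913 (minus strand) for Nfe2l2, chr3:122245413-122245441 (plus strand) for Gclm, chr10:82859104-82859132 (plus strand) for Txnrd1 in 1 of its 3 promoters, and chr2:152105542-152105570 (plus strand) for Srxn1, where the match is in the transcribed part.
Nfe2l2: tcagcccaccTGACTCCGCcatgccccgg
Gclm: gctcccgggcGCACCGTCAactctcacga
Txnrd1: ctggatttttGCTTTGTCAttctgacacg
Srxn1: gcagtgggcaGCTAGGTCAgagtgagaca
The promoters of Keap1, Nqo1, Slc7a11 and Gpx4 had no match in the bases searched. Elements further from the start site were not searched, so a gene without a match may still have one. A match describes letters and is not a site of binding.

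Gpx4 (ENSMUSG00000075706, on chromosome 10 from 80047166 to 80056439) was the most abundant of the 10 genes in every group. Its scaled FPKM was 425, 393 and 379.9 for Control, 214, 204 and 199.8 for HN, and 365, 364 and 359 for PEC. Every HN library lay below every library of the other groups, and the replicates of a group were close. Gpx4 fell in HN mice, with a log2 fold change of -0.93 (SE 0.076, adjusted p = 1.78e-05), and was higher in PEC than in HN mice (log2 fold change 0.84, SE 0.076, adjusted p = 8.09e-05). The difference between PEC and Control mice was -0.097 (SE 0.075, adjusted p = 0.322) and was not called. Leaving out each library in turn kept the fall between -0.97 and -0.88 and the difference between PEC and HN mice between 0.81 and 0.86. With library totals alone, the HN value was -0.38 and no longer passed the fold change of 1.5, the median of all genes being 0.56 there, while PEC against HN was called at 0.64 and PEC against Control turned to 0.26 without a call. In limma on log2(FPKM + 1) the values were -0.40 without a call, 0.62 with a call and 0.22 without a call.

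The Gpx4 value is uncertain because of a near-identical copy. The transcribed pseudogene Gpx4-ps2 matched the Gpx4 transcript with 99.7% identity over 733 bases, and how the counting divided such reads is not stated. Gpx4-ps2 held 15.2, 15.2 and 12.8% of the summed counts of both genes in Control, 14.2, 14.8 and 15.5% for HN, and 14.5, 11.8 and 11.98% for PEC. The sum of both, in TMM-scaled CPM (counts scaled to library size), was 947, 877 and 817 for Control, 475, 458 and 455 for HN, and 835, 788 and 798 for PEC. The HN libraries thus stayed below all others when the copy was added.

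GPX4 and the thioredoxin reductase encoded by Txnrd1 are selenoproteins, in which a TGA codon within the reading frame is read as selenocysteine at the active site. The codon that the GENCODE annotation marks is shown in capitals among its neighbouring coding bases, since without it neither enzyme is complete. In Gpx4 it lies on chromosome 10 at 80054737 to 80054739, and it is codon 73 of 197 in the protein-coding transcript with that many codons. In Txnrd1 it lies on chromosome 10 at 82896037 to 82896039, as codon 498 of 499, directly before the last codon and the stop.
Gpx4: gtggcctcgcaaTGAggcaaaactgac
Txnrd1: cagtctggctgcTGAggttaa

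Slc7a11 (ENSMUSG00000027737, on chromosome 3 from 49892526 to 50443614) encodes the cystine carrier xCT, which brings in cystine for glutathione synthesis. It was by far the least abundant of the 10 genes, so its counts are given. They were 12, 24 and 4 for Control, 215, 222 and 248 for HN, and 81, 25 and 72 for PEC. The HN libraries were all above the others, and PEC replicate 2 was close to Control replicate 4. Its scaled FPKM was at most 0.172 in any library. Slc7a11 rose in HN mice, with a log2 fold change of 3.53 (SE 0.62, adjusted p = 0.0016), and of 4.25 without Control replicate 4 and 3.11 without Control replicate 5. In PEC mice it was higher than in Control (log2 fold change 2.0, SE 0.60, adjusted p = 0.0229), although the scaled FPKM of the groups overlapped. That call was lost with only the groups compared (2.02) and without Control replicate 2 (1.93), Control replicate 5 (1.57), PEC replicate 1 (1.85) or PEC replicate 3 (1.74). PEC against HN gave -1.53 (SE 0.56, adjusted p = 0.0571) and was not called. It was called with library totals (-1.72), with DESeq2 (-1.54), with only the groups compared (-1.53) and without Control replicate 4 (-1.53) or 5 (-1.53). A lncRNA gene (AC157548.1) with a mean count of 38 for Control, 311 for HN, and 188 for PEC shares 568 bases with Slc7a11 at 92.1% identity, so reads from that stretch cannot be assigned with certainty.

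Glutathione synthesis begins with glutamate-cysteine ligase, whose catalytic subunit is encoded by Gclc and whose modifier subunit is encoded by Gclm. Gclc (ENSMUSG00000032350, on chromosome 9 from 77754535 to 77794485) had a scaled FPKM of 228, 201 and 147 for Control, 52.1, 119 and 54.7 for HN, and 80.5, 94.6 and 90.3 for PEC. All HN and PEC values lay below the Control values, and HN replicate 8 was above the PEC libraries while the other HN libraries were below them. On the deposited FPKM, HN replicate 8 (143) was above Control replicate 5 (114), so that HN overlapped with Control. Gclc fell in HN mice, with a log2 fold change of -1.33 (SE 0.31, adjusted p = 0.00727) and was lower in PEC than in Control mice (log2 fold change -1.08, SE 0.31, adjusted p = 0.0179). PEC against HN was 0.25 (SE 0.30, adjusted p = 0.554) and not called, but rested on HN replicate 8, since without it the value was 0.74 and was called. With library totals alone the values against Control were -0.77 and -0.73, neither of them called. PEC against Control was also not called in limma on log2(FPKM + 1) (-0.73), without Control replicate 2 (-0.94) or without PEC replicate 1 (-1.02).

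Gclm (ENSMUSG00000028124, on chromosome 3 from 122245557 to 122270732) had a scaled FPKM of 23.2, 66.1 and 64.8 for Control, 10.7, 31.6 and 28.7 for HN, and 27.9, 22.1 and 25.8 for PEC. Control replicate 2 lay below the other Control libraries and within the range of the PEC libraries, and HN replicate 4 was the lowest of all. The log2 fold change was -1.09 (SE 0.45, adjusted p = 0.0845) in HN against Control, 0.11 (SE 0.45, adjusted p = 0.87) in PEC against HN and -0.98 (SE 0.45, adjusted p = 0.107) in PEC against Control, and none was called. With library totals PEC against HN turned to -0.10, again without a call. Without Control replicate 2, the values against Control were -1.44 in HN and -1.33 in PEC mice and both were called, as were -1.05 and -0.95 with DESeq2. Control replicate 2, low in Gclm, was the highest Control library in Gclc, so the subunits did not follow each other within Control. An antisense lncRNA gene, Gm17494, overlaps Gclm and had 25764 counts over all libraries against 148625 for Gclm. Whether the counting used the strand is not stated.

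NRF2 and KEAP1 themselves were not called in any comparison. Nfe2l2 (ENSMUSG00000015839, on chromosome 2 from 75675513 to 75704641) had a scaled FPKM of 30.4, 25.99 and 24.4 for Control, 39.6, 28.4 and 32.6 for HN, and 30.4, 29.9 and 29.03 for PEC. The groups overlapped, with HN replicate 4 the highest and HN replicate 8 below Control replicate 2. The log2 fold change was 0.34 (SE 0.13, adjusted p = 0.0609) in HN against Control, -0.15 (SE 0.13, adjusted p = 0.383) in PEC against HN and 0.19 (SE 0.13, adjusted p = 0.263) in PEC against Control. Over the alternatives PEC against HN lay between -0.36 and 0.041, without a call. Whether Nfe2l2 was called in HN mice depended on the scaling. As deposited, the FPKM of Nfe2l2 was 24.9, 21.6 and 18.97 for Control, 45.5, 34.1 and 39.95 for HN, and 31.8, 30.6 and 30.4 for PEC. On this scale every HN library lay above every PEC library, and every PEC library above every Control library. There the HN libraries were called higher than Control, at 0.89 in edgeR with library totals and 0.84 in limma on log2(FPKM + 1).

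Keap1 (ENSMUSG00000003308, on chromosome 9 from 21229730 to 21239361) had a scaled FPKM of 10.4, 11.3 and 8.02 for Control, 8.25, 10.02 and 8.28 for HN, and 8.39, 8.19 and 9.94 for PEC. The 3 groups overlapped, with Control replicate 4 the highest and Control replicate 5 the lowest, whereas the deposited FPKM of every HN library was above Control. Its log2 fold changes were -0.14 (SE 0.15, adjusted p = 0.508), 0.017 (SE 0.15, adjusted p = 0.942) and -0.12 (SE 0.15, adjusted p = 0.54) in the order HN against Control, PEC against HN, then PEC against Control. Their signs turned with library totals to 0.41, -0.18 and 0.23, again without a call.

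Txnrd1 (ENSMUSG00000020250, on chromosome 10 from 82833951 to 82897712), the cytosolic reductase that restores thioredoxin, had a scaled FPKM of 46.2, 35.8 and 31.2 for Control, 26.6, 25.8 and 22.99 for HN, and 18.7, 20.3 and 18.7 for PEC. The 3 groups did not overlap, with Control highest and PEC lowest, but the deposited FPKM of HN and Control did. Txnrd1 was lower in PEC than in Control mice (log2 fold change -0.93, SE 0.14, adjusted p = 0.000554). In HN against Control the log2 fold change was -0.56 (SE 0.14, adjusted p = 0.00879), which passed the adjusted p but missed the fold change of 1.5, and it passed both without Control replicate 4 (-0.60), Control replicate 5 (-0.69) or HN replicate 4 (-0.60), and with a trend on gene length removed (-0.61). PEC against HN was -0.37 (SE 0.14, adjusted p = 0.0604) and not called. Over the alternatives this value lay between -0.58 and -0.067, without a call, and between -0.43 and -0.33 with each library left out. With library totals the HN value was -0.013 and the value of PEC against Control was -0.58, just under the fold change of 1.5 and so not called, as in limma on log2(FPKM + 1) (-0.57).

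Srxn1 (ENSMUSG00000032802, on chromosome 2 from 152105516 to 152109322) encodes sulfiredoxin, which repairs over-oxidised peroxiredoxins. Its scaled FPKM was 63.2, 45.3 and 20.6 for Control, 18.7, 31.5 and 22.8 for HN, and 28.1, 23.4 and 31.99 for PEC. Control replicates were far apart, and Control replicate 5 lay within the HN range. The log2 fold change was -0.80 (SE 0.36, adjusted p = 0.107) in HN against Control, 0.21 (SE 0.36, adjusted p = 0.676) in PEC against HN and -0.59 (SE 0.36, adjusted p = 0.21) in PEC against Control, with no call. Without Control replicate 5 the values against Control were -1.14 in HN and -0.93 in PEC mice, and both were called.

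Nqo1 (ENSMUSG00000003849, on chromosome 8 from 107388225 to 107403206) encodes a quinone reductase and is among the most used readouts of NRF2 activity. Its scaled FPKM was 45.8, 43.5 and 29.5 for Control, 30.2, 29.7 and 22.1 for HN, and 39.5, 34.1 and 37.9 for PEC. On this scale all PEC libraries were above all HN libraries, while Control replicate 5 lay among the HN libraries. The deposited FPKM of PEC (from 34.8) and HN (up to 35.8) overlapped. The log2 fold change was -0.51 (SE 0.18, adjusted p = 0.0496) in HN against Control, where library totals turned it to 0.036, 0.46 (SE 0.18, adjusted p = 0.0735) in PEC against HN and -0.048 (SE 0.18, adjusted p = 0.852) in PEC against Control, where library totals turned it to 0.30. None was called, the first missing the fold change of 1.5. Without Control replicate 5 the first was -0.69 and was called, and with upper-quartile factors PEC against HN was 0.59 and was called.

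Hmox1 (ENSMUSG00000005413, on chromosome 8 from 75093621 to 75100589), the inducible haem oxygenase, releases iron and biliverdin from haem. Its scaled FPKM was 220.0, 30.7 and 87.3 for Control, 28.6, 27.9 and 20.3 for HN, and 41.8, 30.6 and 37.7 for PEC. Control replicate 2 was far above Control replicate 4, which lay close to the HN and PEC libraries, and the HN libraries were below all others, although their deposited FPKM overlapped with Control and with PEC. The PEC and Control libraries overlapped. Hmox1 was lower in HN than in Control mice, with a log2 fold change of -2.11 (SE 0.57, adjusted p = 0.0148), and lower in PEC than in Control mice (log2 fold change -1.57, SE 0.56, adjusted p = 0.0439). PEC against HN was 0.54 (SE 0.55, adjusted p = 0.473) and not called. Control replicate 2 set the size of these differences, which were -1.17 in HN and -0.64 in PEC mice without it. The call in HN was kept without Control replicate 2 but lost without HN replicate 12 (-1.97) and in limma on log2(FPKM + 1) (-1.15). The call in PEC against Control was lost with library totals (-1.21), upper-quartile factors (-1.41), limma on log2(FPKM + 1) (-0.83), no filter (-1.58) or only the groups compared (-1.55), and without Control replicate 2 (-0.64), Control replicate 5 (-1.74), HN replicate 4 (-1.58), HN replicate 8 (-1.58), HN replicate 12 (-1.58), PEC replicate 1 (-1.69), PEC replicate 2 (-1.45) or PEC replicate 3 (-1.58).

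**Figure D3:**
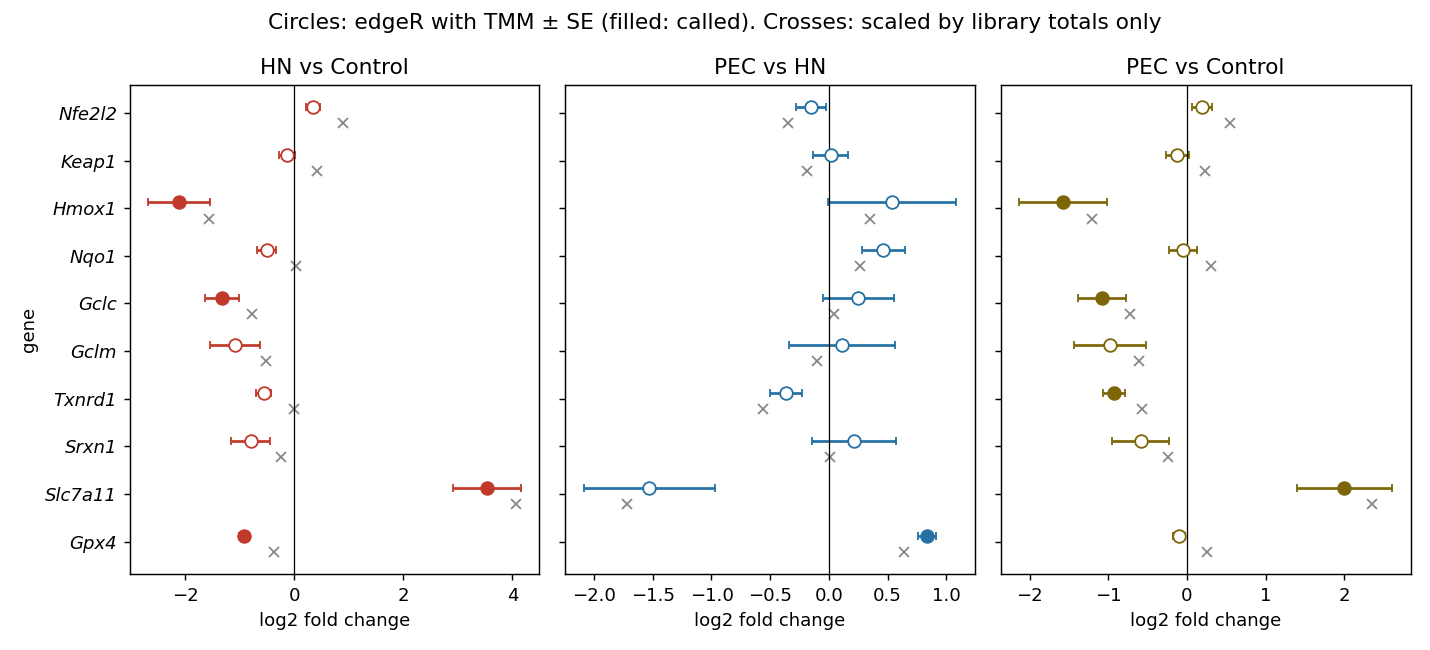
Log2 fold change of the 10 genes in the 3 comparisons, with circles for edgeR with TMM (bars show the SE, filled circles are called genes) and crosses for scaling by library totals only. The crosses lie to the right of the circles in the comparisons with Control and to the left in PEC against HN, and Gpx4 is called at -0.93 in HN against Control and 0.84 in PEC against HN, the former not being called with library totals.

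Ordered by level, the mean scaled FPKM in Control mice was 399 ± 23.1 for Gpx4, 192 ± 41.3 for Gclc, 113 ± 97.2 for Hmox1, 51.4 ± 24.4 for Gclm, 43.1 ± 21.4 for Srxn1, 39.6 ± 8.85 for Nqo1, 37.8 ± 7.70 for Txnrd1, 26.9 ± 3.11 for Nfe2l2, 9.90 ± 1.69 for Keap1 and 0.0121 ± 0.0120 for Slc7a11 (SD, n = 3 for each). From Gclc to Txnrd1, the ranges of neighbours in this order overlapped, although Gclc was above Hmox1 within every Control library. In HN mice the order began with Gpx4 at 206 ± 7.11 and Gclc at 75.3 ± 37.9, and Nfe2l2 followed at 33.5 ± 5.67, above Nqo1 at 27.3 ± 4.56, Hmox1 at 25.6 ± 4.58, Txnrd1 at 25.1 ± 1.89, Srxn1 at 24.3 ± 6.54, Gclm at 23.7 ± 11.3 and Keap1 at 8.85 ± 1.015 (SD, n = 3). Neighbours from Nfe2l2 to Gclm overlapped in that order. In PEC mice Gpx4 stood at 363 ± 3.22, Gclc at 88.5 ± 7.21, Nqo1 at 37.2 ± 2.82, Hmox1 at 36.7 ± 5.67, Nfe2l2 at 29.8 ± 0.701, Srxn1 at 27.8 ± 4.32, Gclm at 25.3 ± 2.92, Txnrd1 at 19.2 ± 0.903 and Keap1 at 8.84 ± 0.959 (SD, n = 3). There Nqo1 overlapped with Hmox1, and Srxn1 with both Nfe2l2 and Gclm. The SD was smaller in PEC than in Control mice for each gene but Slc7a11.

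The other genes of the pathway were described by 6 lists, each to be read beside all tested genes. Of those, 32.4% were called with TMM and 42.0% with library totals in HN against Control, 28.7% and 30.8% in PEC against HN, and 36.4% and 39.2% in PEC against Control. With library totals, 7708 were higher and 1286 lower in HN against Control. The most abundant gene of a list is the one with the highest mean FPKM over all libraries. In the list of NRF2 partners and turnover (Mafg, Maff, Mafk, Bach1, Nfe2l1, Cul3, Rbx1, Sqstm1, Btrc, Gsk3b and Crebbp), 1 of 11 tested genes was called higher and 2 lower when HN was compared with Control (3 higher and 0 lower with library totals). Between PEC and HN, 3 of 11 were called, each of them lower (0 higher and 5 lower with library totals). Between PEC and Control, 4 of 11 were called, each of them lower (0 higher and 3 lower with library totals). The medians of their log2 fold changes were -0.019 in HN against Control, -0.35 in PEC against HN and -0.40 in PEC against Control (0.54, -0.55 and -0.044 with library totals). Maff, a small MAF protein, had a scaled FPKM of 1.58 to 3.82 for Control, 8.48 to 15.02 for HN, and 0.927 to 5.48 for PEC and a log2 fold change of 1.86 (SE 0.59, adjusted p = 0.0316) in HN against Control. The Maff call was lost without Control replicate 2 (2.08), Control replicate 4 (2.0), Control replicate 5 (1.55), HN replicate 4 (1.54) or HN replicate 8 (2.0). Sqstm1, the autophagy receptor p62 that sequesters KEAP1 and the most abundant of the list, fell in HN mice with a log2 fold change of -0.91 (SE 0.16, adjusted p = 0.00153), with a scaled FPKM of 174 to 261 for Control, 94.8 to 124 for HN, and 147 to 159 for PEC. Cul3, the scaffold of the ligase that KEAP1 uses, fell in HN mice (log2 fold change -0.66, SE 0.086, adjusted p = 0.000263), with a scaled FPKM of 30.3 to 35.2 for Control, 19.3 to 20.7 for HN, and 14.3 to 16.7 for PEC. Bach1, a repressor that competes with NRF2 for its elements, did not differ by call in HN mice (0.077) and was lower in PEC than in HN mice (log2 fold change -1.28, SE 0.17, adjusted p = 0.000429). Its scaled FPKM was 8.55, 8.66 and 7.08 for Control, 10.1, 8.17 and 6.91 for HN, and 3.02, 4.10 and 3.13 for PEC, so that all PEC libraries lay below all others. Nfe2l1, a relative of NRF2 that controls proteasome genes, had a scaled FPKM of 12.6, 13.4 and 14.5 for Control, 13.5, 12.1 and 13.7 for HN, and 6.25, 6.02 and 6.09 for PEC, again with PEC below all others, and was lower in PEC than in HN mice (log2 fold change -1.08, SE 0.085, adjusted p = 4.49e-05). Gsk3b, a kinase that promotes NRF2 breakdown, was lower in PEC than in HN mice (log2 fold change -1.71, SE 0.55, adjusted p = 0.0352), but its replicates were uneven, with a scaled FPKM of 3.41 to 7.48 for Control, 3.80 to 7.32 for HN, and 0.909 to 3.47 for PEC. Its call was lost with a length trend (-1.29) or GC trend (-1.46) removed, with only the groups compared (-1.70) and without HN replicate 8 (-1.53), HN replicate 12 (-1.62), PEC replicate 1 (-1.39) or PEC replicate 2 (-1.42). With library totals, Sqstm1 and Cul3 were not called in HN mice, at -0.36 and -0.10, and Bach1 was called higher (0.62).

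Of the list of glutathione synthesis, recycling and use (Gss, Gsr, Ggt1, Slc3a2, Chac1, Glrx, Gpx1, Gpx2, Gpx3, Gpx7, Gpx8, Mgst1, Gsta4, Gstm1 and Gstp1), 3 of 14 tested genes were called higher and 7 lower when HN was compared with Control (3 higher and 1 lower with library totals). Between PEC and HN, 5 of 14 were called higher and 1 lower (4 higher and 2 lower with library totals). Between PEC and Control, 4 of 14 were called higher and 1 lower (6 higher and 1 lower with library totals). Leaving out 1 library changed the number called by over 1.5 times in PEC against Control (9 without PEC replicate 2). Gpx2 did not pass the filter. The median log2 fold changes were -0.67 in HN against Control, 0.31 in PEC against HN and -0.15 in PEC against Control (-0.11, 0.11 and 0.22 with library totals). Ggt1, which breaks down extracellular glutathione at the proximal tubule brush border, had a scaled FPKM of 219.7, 216 and 272 for Control, 69.5, 76.1 and 69.1 for HN, and 149, 188 and 139 for PEC. No group overlapped another, although the deposited FPKM of PEC and Control did, and Ggt1 fell in HN mice (log2 fold change -1.70, SE 0.13, adjusted p = 1.39e-05) and was higher in PEC than in HN mice (log2 fold change 1.17, SE 0.13, adjusted p = 0.000203). Gstm1, a glutathione transferase, gave a log2 fold change of -0.83 (SE 0.17, adjusted p = 0.00331) in HN against Control and 1.37 (SE 0.17, adjusted p = 0.000319) in PEC against HN, with a scaled FPKM of 185 to 239 for Control, 107 to 132 for HN, and 232 to 332 for PEC. Parts of Gstm1 match Gstm2-ps1 (657 bases at 97.9% identity), Gstm2 (219 at 92.7%) and Gstm6 (216 at 90.3%). Their separate counts together equalled 16.9% of the Gstm1 count for Control, 24.7% for HN, and 16.1% for PEC, mostly from Gstm2, and their part in the Gstm1 values was not tested. Gsta4, a transferase for the lipid peroxidation product hydroxynonenal, was not called in HN mice (-0.045) and was higher in PEC than in HN mice (log2 fold change 1.15, SE 0.26, adjusted p = 0.00809), with a scaled FPKM of 14.3 to 18.04 for Control, 13.9 to 18.6 for HN, and 22.6 to 49.9 for PEC. The peroxidases of the endoplasmic reticulum went the other way from Gpx4 in HN mice. Gpx7 rose (log2 fold change 2.80, SE 0.26, adjusted p = 3.3e-05), with a scaled FPKM of 0.630 to 1.26 for Control, 6.29 to 7.30 for HN, and 3.21 to 4.02 for PEC. Likewise Gpx8 rose (log2 fold change 1.34, SE 0.18, adjusted p = 0.00033), with a scaled FPKM of 10.9 to 12.01 for Control, 28.3 to 30.1 for HN, and 17.3 to 30.1 for PEC. Gpx7 was lower in PEC than in HN mice (log2 fold change -0.87, SE 0.24, adjusted p = 0.0178), a call lost without HN replicate 4 (-0.83) or PEC replicate 3 (-0.77). Gpx3, the secreted peroxidase made by the proximal tubule and the most abundant of the list, had a scaled FPKM of 15439.9, 14648 and 12543 for Control, 7187, 6755 and 2479.8 for HN, and 2935, 12579 and 2810.2 for PEC. HN replicate 12 was far below the other HN libraries, and PEC replicate 2 far above the other PEC libraries. No comparison of Gpx3 was called, HN against Control having a log2 fold change of -1.35 (SE 0.59, adjusted p = 0.0998), which was called without PEC replicate 2 (-1.35). PEC against Control was -1.19 with all libraries and was called without PEC replicate 2 (-2.26). With library totals, Gstm1 in HN mice was not called, at -0.27.

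The thioredoxin and peroxiredoxin system (Txn1, Txn2, Txnrd2, Txnrd3, Txnip, Prdx1, Prdx2, Prdx3, Prdx4, Prdx5, Prdx6 and Sesn2) removes hydrogen peroxide with electrons from NADPH. Of this list, 1 of 12 tested genes was called higher and 7 lower when HN was compared with Control (3 higher and 2 lower with library totals). Between PEC and HN, 2 of 12 were called, each of them higher (2 higher and 0 lower with library totals). Between PEC and Control, 3 of 12 were called, each of them lower (1 higher and 0 lower with library totals). The median log2 fold changes were -0.62 in HN against Control, 0.24 in PEC against HN and -0.24 in PEC against Control (-0.07, 0.038 and 0.12 with library totals). Prdx5, also the most abundant, had a scaled FPKM of 534, 535 and 543 for Control, 161, 162 and 165 for HN, and 325, 304 and 291 for PEC and fell (log2 fold change -1.70, SE 0.077, adjusted p = 1.46e-06), and it was higher in PEC than in HN mice (log2 fold change 0.93, SE 0.075, adjusted p = 4.85e-05). Trmt112 overlaps Prdx5 on the other strand. Prdx3 fell in HN mice (log2 fold change -1.22, SE 0.073, adjusted p = 4.29e-06), with a scaled FPKM of 140.4 to 150.2 for Control, 60.5 to 62.4 for HN, and 79.1 to 90.7 for PEC. Txn2, the mitochondrial thioredoxin, fell in HN mice (log2 fold change -0.92, SE 0.14, adjusted p = 0.000723) and was higher in PEC than in HN mice (log2 fold change 0.96, SE 0.14, adjusted p = 0.000843), with a scaled FPKM of 17.3 to 24.9 for Control, 9.45 to 12.3 for HN, and 20.1 to 21.9 for PEC. With library totals, Txn2 in HN mice was not called, at -0.35, while Prdx5 and Prdx3 were called, at -1.14 and -0.66. The share of counts on mitochondrial genes, lowest in HN mice, and the sum of proximal tubule markers moved the same way as these genes.

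Of the genes of NADPH supply and other NRF2 targets (G6pdx, Pgd, Taldo1, Tkt, Me1, Idh1, Ephx1, Aox1, Cbr1, Cbr3, Ugdh, Osgin1, Abcc1, Abcc2 and Abcc4), 4 of 15 tested genes were called higher and 4 lower when HN was compared with Control (6 higher and 2 lower with library totals). Between PEC and HN, 0 of 15 were called, and likewise 0 with library totals. Between PEC and Control, 6 of 15 were called higher and 4 lower (8 higher and 2 lower with library totals). Leaving out 1 library changed the number called by over 1.5 times in PEC against HN (1 without PEC replicate 3) and in PEC against Control (6 without Control replicate 5, 6 without PEC replicate 3). The median log2 fold changes were 0.29 in HN against Control, 0.10 in PEC against HN and 0.29 in PEC against Control (0.84, -0.099 and 0.65 with library totals). Beside the count of 0 in PEC against HN from edgeR, 0 genes passed the fold change with an unadjusted p of at most 0.05, 0 were called with DESeq2, 1 was called higher with upper-quartile factors, and 1 was called lower with limma on log2(FPKM + 1). Cbr3, a carbonyl reductase, rose in HN mice (log2 fold change 2.51, SE 0.42, adjusted p = 0.00122), with a scaled FPKM of 0.887 to 2.14 for Control, 6.15 to 10.03 for HN, and 2.73 to 6.72 for PEC. Me1, the malic enzyme of the cytosol, fell in HN mice (log2 fold change -1.88, SE 0.20, adjusted p = 8.89e-05), with a scaled FPKM of 169, 158 and 207 for Control, 43.2, 53.5 and 45.4 for HN, and 61.4, 82.2 and 45.3 for PEC. The HN and PEC libraries of Me1 overlapped, and without PEC replicate 3 it was called higher in PEC than in HN mice (0.63). Osgin1 fell in HN mice (log2 fold change -1.95, SE 0.68, adjusted p = 0.0455), with a scaled FPKM of 20.9 to 35.3 for Control, 2.76 to 10.6 for HN, and 2.98 to 14.95 for PEC. Its call was lost with library totals (-1.40) and without Control replicate 2 (-1.76), Control replicate 4 (-1.92), Control replicate 5 (-2.13), HN replicate 4 (-2.31), HN replicate 8 (-1.55) or HN replicate 12 (-2.07). Idh1, the cytosolic isocitrate dehydrogenase and the most abundant of the list, had a scaled FPKM of 159 to 195 for Control, 109 to 115 for HN, and 106 to 134 for PEC and a log2 fold change of -0.66 (SE 0.11, adjusted p = 0.00122) in HN against Control, which with library totals was -0.097 and not called.

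Iron drives lipid peroxidation, and ferritin stores it. Of the genes of haem and iron handling (Hmox2, Blvra, Blvrb, Fth1, Ftl1, Tfrc, Slc40a1, Slc11a2, Ncoa4, Ireb2, Aco1, Fech, Alas1, Steap3 and Cp), 2 of 15 tested genes were called higher and 8 lower when HN was compared with Control (4 higher and 1 lower with library totals). Between PEC and HN, 2 of 15 were called higher and 3 lower (1 higher and 3 lower with library totals). Between PEC and Control, 3 of 15 were called higher and 6 lower (3 higher and 3 lower with library totals). The median log2 fold changes were -0.74 in HN against Control, 0.10 in PEC against HN and -0.54 in PEC against Control (-0.18, -0.098 and -0.19 with library totals). The heavy chain of ferritin, Fth1, had a scaled FPKM of 754, 653 and 765 for Control, 429, 431 and 352 for HN, and 1392, 1271 and 1096 for PEC. All PEC libraries were above all Control libraries, which were above all HN libraries, with a log2 fold change of -0.82 (SE 0.13, adjusted p = 0.0008) in HN against Control and 1.65 (SE 0.13, adjusted p = 4.47e-05) in PEC against HN. The light chain, Ftl1, the most abundant of the list, had a scaled FPKM of 2062, 1773 and 1919 for Control, 1169.5, 1196 and 1033 for HN, and 1033, 987 and 1186 for PEC. It fell in HN mice (log2 fold change -0.74, SE 0.11, adjusted p = 0.000666) and was not called in PEC against HN (log2 fold change -0.064, SE 0.11, adjusted p = 0.683). In the table, 7 other genes match Ftl1 at 90.8% to 99.6% identity, and their own counts came to 2.33% of the Ftl1 count for Control, 2.48% for HN, and 2.42% for PEC. The microRNA gene Gm22133 overlaps Ftl1 on the same strand, with 238224 counts over all libraries against 1311378 for Ftl1. It was called lower in HN than in Control (-0.71) and higher in PEC than in HN mice (1.102). How the counting divided reads between the 2 genes is not stated, so the Ftl1 values, its lack of a call in PEC against HN among them, may depend on it. Cp, the ferroxidase ceruloplasmin, rose in HN mice (log2 fold change 3.17, SE 0.14, adjusted p = 1.43e-06) and was lower in PEC than in HN mice (log2 fold change -0.82, SE 0.13, adjusted p = 0.00121), with a scaled FPKM of 4.36, 5.72 and 4.20 for Control, 47.9, 40.1 and 39.2 for HN, and 24.3, 23.7 and 22.8 for PEC. Its difference between PEC and HN mice was -0.41 with a trend on gene length removed and -0.45 with a trend on GC content removed, and was not called with either. Hps3 overlaps Cp on the other strand, with 20983 counts over all libraries against 184525 for Cp. Steap3, an iron reductase, rose in HN mice (log2 fold change 1.36, SE 0.17, adjusted p = 0.000193) and was lower in PEC than in HN mice (log2 fold change -2.51, SE 0.17, adjusted p = 2.93e-05), with a scaled FPKM of 1.06, 0.974 and 1.47 for Control, 3.12, 2.68 and 3.06 for HN, and 0.488, 0.548 and 0.507 for PEC. The PEC libraries of Steap3 lay below Control as well as HN. Ireb2, an iron-responsive regulator of translation, was lower in PEC than in HN mice (log2 fold change -1.10, SE 0.095, adjusted p = 6.85e-05), with a scaled FPKM of 14.97 to 15.4 for Control, 10.8 to 11.2 for HN, and 4.55 to 5.91 for PEC. Ncoa4, the receptor that takes ferritin to lysosomes, fell in HN mice (log2 fold change -1.25, SE 0.42, adjusted p = 0.0386), with a scaled FPKM of 7.01 to 11.1 for Control, 3.46 to 4.64 for HN, and 2.91 to 11.2 for PEC. The Ncoa4 call was lost without Control replicate 2 (-1.16), Control replicate 4 (-1.13), HN replicate 4 (-1.37), HN replicate 8 (-1.22) or HN replicate 12 (-1.16), and PEC against HN was called without PEC replicate 2 (1.36). A pseudogene, Gm6768, shares 1878 bases with it at 99.9% identity, and its separate count equalled 57.9% of the Ncoa4 count for Control, 43.7% for HN, and 11.6% for PEC. With library totals, Fth1, Ftl1 and Ncoa4 in HN mice were not called, at -0.26, -0.18 and -0.71. The erythroid genes were also lower in HN than in Control and higher in PEC than in HN mice, and their part was not tested.

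Of the list of ferroptosis drivers and GPX4-independent defence (Acsl4, Lpcat3, Alox5, Alox12, Alox15, Por, Aifm2, Gch1, Dhodh, Sat1, Ptgs2, Vdac2, Vdac3, Cisd1, Nfs1, Hspb1, Gls2, Pebp1, Cbs and Cth), 4 of 19 tested genes were called higher and 6 lower when HN was compared with Control (5 higher and 4 lower with library totals). Between PEC and HN, 3 of 19 were called higher and 2 lower (2 higher and 3 lower with library totals). Between PEC and Control, 3 of 19 were called higher and 6 lower (6 higher and 2 lower with library totals). Leaving out 1 library changed the number called by over 1.5 times in PEC against Control (5 without Control replicate 5). Alox15 did not pass the filter, and the median log2 fold changes were -0.29 in HN against Control, 0.34 in PEC against HN and 0.04 in PEC against Control (0.27, 0.14 and 0.4 with library totals). Acsl4, which places polyunsaturated fatty acids into the membrane lipids that peroxidise, had a scaled FPKM of 16.9, 14.5 and 10.1 for Control, 23.5, 22.1 and 16.8 for HN, and 7.35, 8.09 and 7.51 for PEC. The PEC libraries lay below all others, although their deposited FPKM overlapped with Control, with a log2 fold change of -1.42 (SE 0.19, adjusted p = 0.000481) in PEC against HN. The rise in HN mice was 0.61 (SE 0.19, adjusted p = 0.0262) and its call was lost without Control replicate 4 (0.65), Control replicate 5 (0.43), HN replicate 4 (0.52) or HN replicate 8 (0.57). Cbs, the first enzyme of transsulfuration, which makes cysteine from methionine, had a scaled FPKM of 17.1, 19.7 and 23.6 for Control, 5.31, 5.53 and 5.48 for HN, and 13.04, 13.8 and 11.3 for PEC. It fell in HN mice (log2 fold change -1.86, SE 0.12, adjusted p = 6.8e-06) and was higher in PEC than in HN mice (log2 fold change 1.24, SE 0.12, adjusted p = 0.000113). Stretches of 421 and 422 bases of a Cbs transcript match Vmn1r218 (at 0 counts) and Rdh16 at 90.7% and 90.5% identity. Rdh16 had mean counts of 13550.3 for Control, 5698 for HN, and 7532 for PEC, in the same order as Cbs. Also matching was Gm49492 (226 bases at 90.7%), which had 956 for Control, 668 for HN, and 668 for PEC. The part of these genes in the Cbs values was not tested. Gch1, the first enzyme of tetrahydrobiopterin synthesis, rose in HN mice (log2 fold change 1.72, SE 0.32, adjusted p = 0.00228), with a scaled FPKM of 0.206 to 0.525 for Control, 0.834 to 1.35 for HN, and 0.660 to 0.724 for PEC, and PEC against HN was called with library totals (-0.92) and without Control replicate 5 (-0.74). Alox5, a lipoxygenase of leukocytes, rose in HN mice (log2 fold change 1.83, SE 0.45, adjusted p = 0.00942), with a scaled FPKM of 0.0386 to 0.0721 for Control, 0.116 to 0.278 for HN, and 0.134 to 0.196 for PEC. The sum of macrophage markers rose with Alox5 in HN mice. In PEC mice that sum was lower, at 412 to 575 against 926 to 1099 in HN mice. Alox5 was not called in PEC against HN (log2 fold change -0.33, SE 0.42, adjusted p = 0.574). The part of macrophages in the Alox5 values was not tested. Hspb1, a small heat shock protein, rose in HN mice (log2 fold change 1.45, SE 0.20, adjusted p = 0.000411) and was lower in PEC than in HN mice (log2 fold change -0.98, SE 0.20, adjusted p = 0.00449), with a scaled FPKM of 59.7 to 77.4 for Control, 137 to 222 for HN, and 73.6 to 106 for PEC. Pebp1, which binds lipoxygenases and was the most abundant of the list, had a scaled FPKM of 223 to 239 for Control, 132 to 149 for HN, and 166 to 175 for PEC and a log2 fold change of -0.70 (SE 0.073, adjusted p = 7.18e-05) in HN against Control, which with library totals was -0.14 and not called. Its pseudogenes Gm9824 and Gm10819 match it at 98.9% and 99.1% identity and were counted separately, their counts equalling 11.8% of the Pebp1 count for Control, 7.15% for HN, and 4.20% for PEC.

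**Figure D4:**
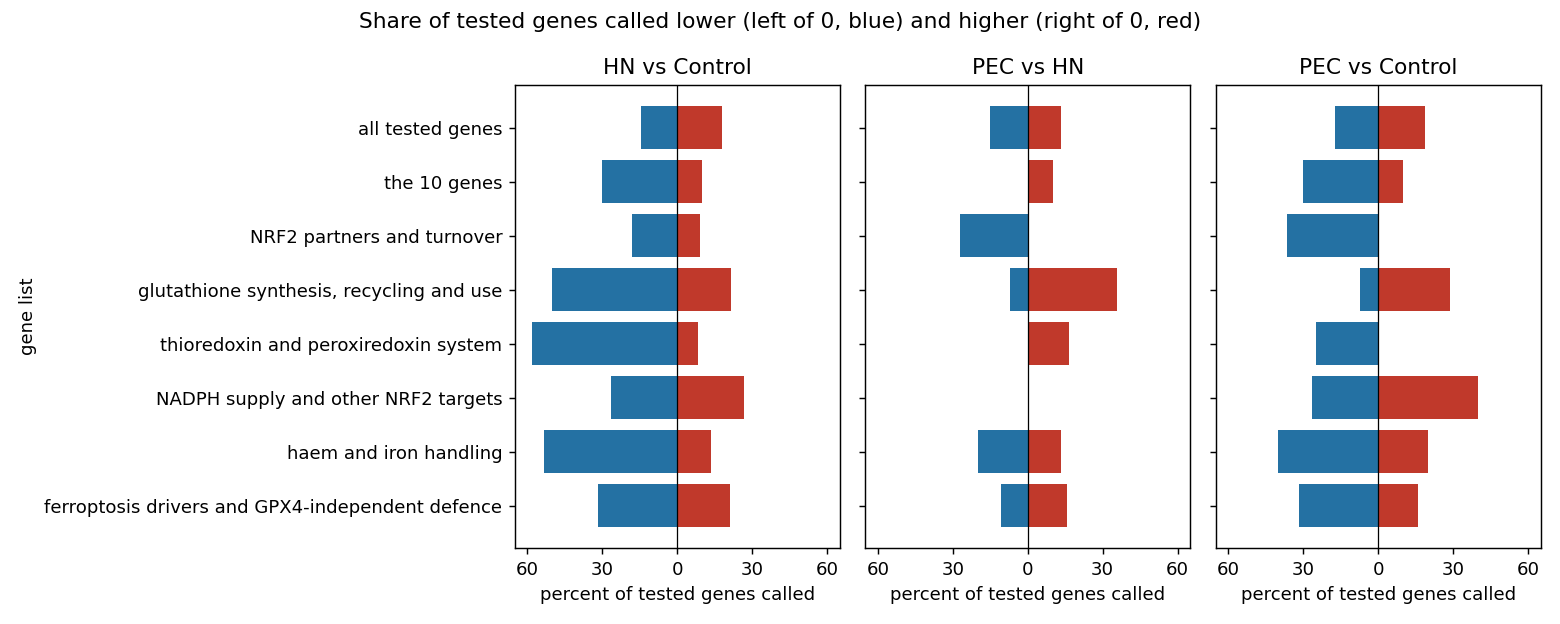
Percent of the tested genes of each list called lower (left of 0, blue) and higher (right of 0, red) in the 3 comparisons, with all 21392 tested genes at the top. In HN against Control under TMM scaling, lower and higher calls are equal in number for NADPH supply and other NRF2 targets. In the other lists lower calls outnumber higher ones there. With library totals, higher calls outnumber lower ones in every list.

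**Figure D5:**
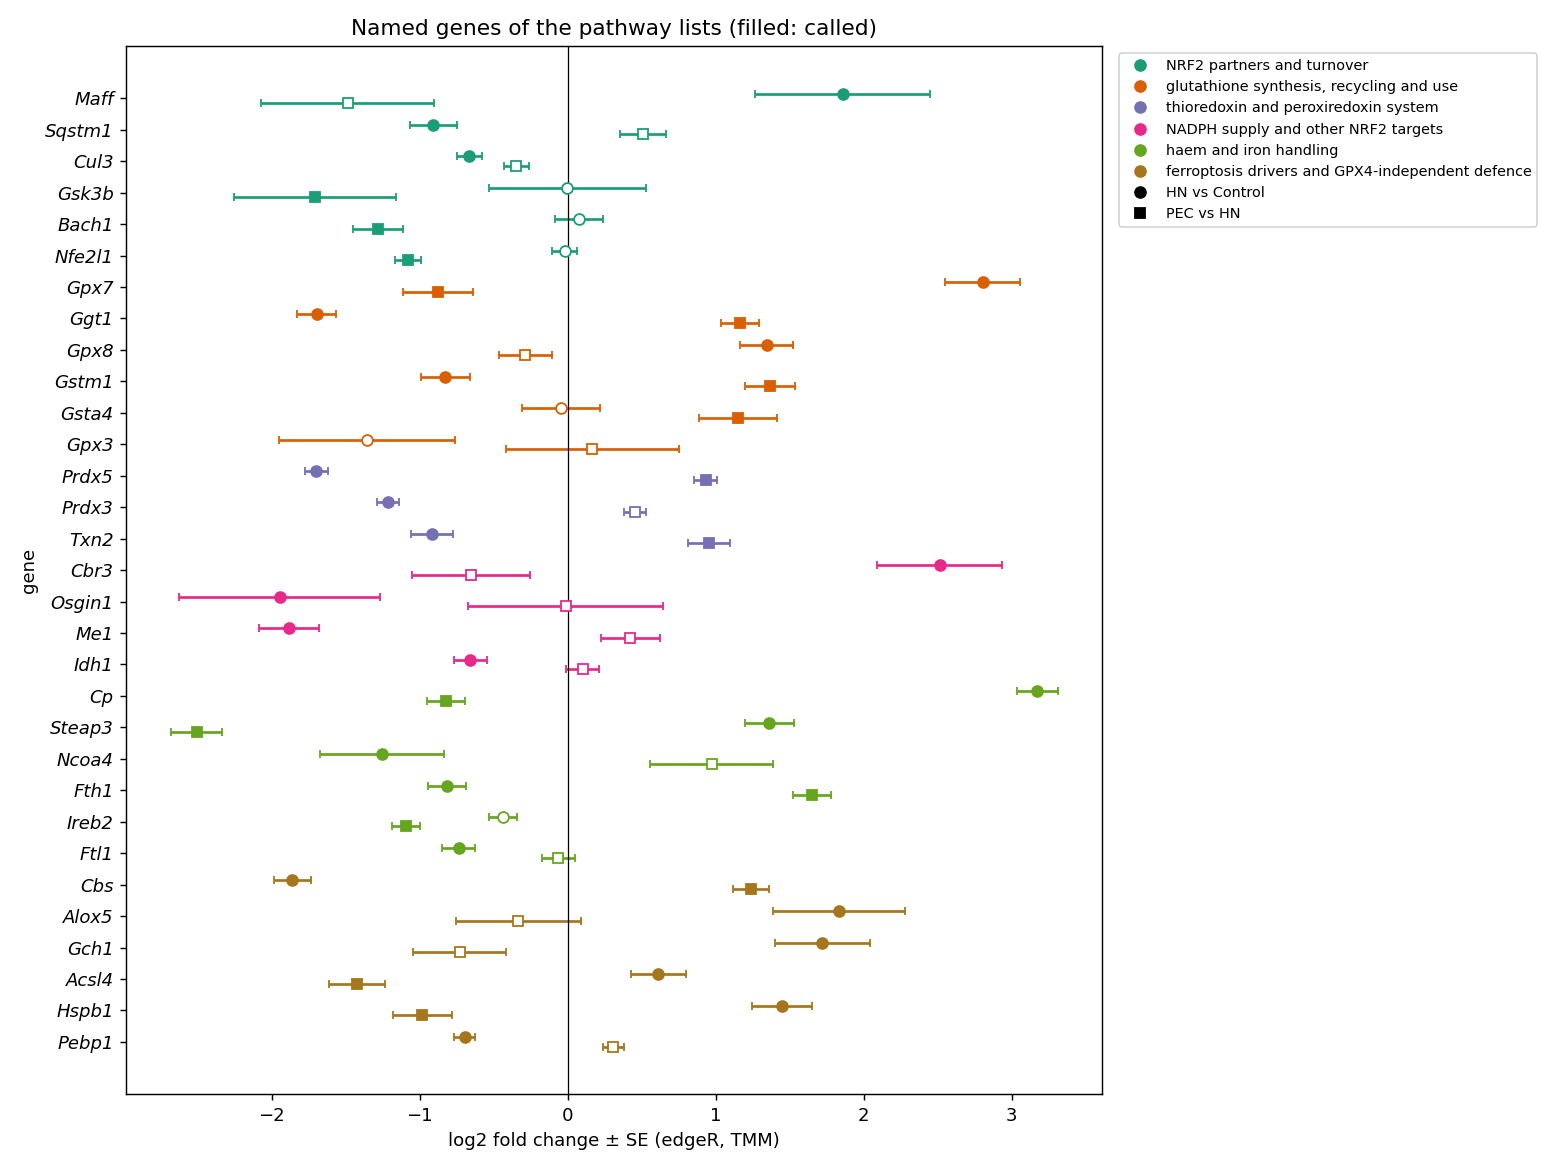
Log2 fold change with SE of the named genes of the 6 lists in HN against Control (circles) and PEC against HN (squares), filled where called, with TMM scaling. Cp rises by 3.17 in HN against Control, and Steap3 is lowest in PEC against HN at -2.51.

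Pearson's r of TMM-scaled log2 CPM was taken over the 9 libraries, which fall into 3 groups, so that it can mostly describe differences between groups. The genes with the highest r, those most similar in pattern, are given for some of the 10. For Gpx4 they were Slc6a18 (0.995), Gm15883 (0.995) and Sod1 (0.994), for Slc7a11 Cracr2b (0.983), Cdc42ep1 (0.979) and Vopp1 (0.978), for Nqo1 Cryab (0.954), Tram1 (0.950) and Mrps6 (0.950) and for Hmox1 Gm35853 (0.959), Adck2 (0.951) and Setd6 (0.913). Hmox1 was spread from 30.7 to 220.0 in scaled FPKM within Control, so its r also follows differences between the Control libraries. Sod1 encodes the cytosolic superoxide dismutase and Slc6a18 a proximal tubule carrier of amino acids.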

How the data were processed

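Kidney poly(A) RNA-seq of 9 libraries was used. The counts per gene and the FPKM are those the authors deposited. The processing notes name Bowtie 0.12.2 with mm8 and mm9, whereas table coordinates are GRCm38: start and end equal GENCODE release M21 for 51991 of 55144 genes and 9 of the 10 genes described. The counting program and its use of strand are not given in the sources used here. All libraries were fitted together with edgeR 4.0.16 in R 4.3.3 (TMM factors, filterByExpr, quasi-likelihood test, Benjamini-Hochberg adjustment over 21392 genes), and the steps were tested on simulated data. Alternatives were other scalings, DESeq2 1.42.0, limma 3.58.1 on log2 FPKM, other filters and thresholds, removal of length trends, and leaving out each library. Removal of GC trends was chosen after seeing the data. Copies were sought with blastn 2.17.0 (at least 90% identity over at least 200 bases), and figures drawn with matplotlib 3.10.9 in Python 3.11.15. The genes and lists were chosen with earlier results of these data known. Named from each list were the 3 called genes with the largest absolute log2 fold change in HN against Control and in PEC against HN, and the most abundant gene by mean FPKM. The 3 tested genes with the highest Pearson r are named for Hmox1, Nqo1, Slc7a11 and Gpx4.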

Additional observations from a re-analysis of the deposited data

How the results depend on the processing

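Of 684 values of the 10 genes under alternatives, 588 kept their direction and side of the threshold, 36 lost a call, 25 gained one, 35 that were not called changed sign, and no called value changed sign. Of 2130 values of the named list genes, the numbers were 1881, 134, 53 and 62. The number of the 10 genes called in HN against Control (4) was 2 in limma on log2(FPKM + 1), 2 in limma on log2(FPKM + 0.1), and 3 to 7 with each library left out. In PEC against HN (1) it was 2 with library totals, 2 with upper-quartile factors, 2 with DESeq2, 2 with only the groups compared, 2 at an unadjusted p, 0 at a fold change of at least 2 (edgeR), and 1 to 2 with each library left out. In PEC against Control (4) it was 1 with library totals, 0 in limma on log2(FPKM + 1), 1 in limma on log2(FPKM + 0.1), 2 with only the groups compared, and 1 to 4 with each library left out. The cause was not tested. In limma, 9 of the 10 genes could be tested, since the mean FPKM of Slc7a11 was under 0.5. With log2(FPKM + 0.1) the median log2 fold change of all genes was 0.47, -0.25 and 0.26, and 83.2%, 28.4% and 70.9% of calls were higher.

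No paired analysis was possible because the groups share fewer than 2 replicate numbers, and no source pairs their mice. Slc7a11 had 4 to 248 counts per library, and its fold changes had the largest SE of the 10 genes. Each group had 3 libraries, and treatment and any difference in preparation cannot be told apart. Levels of RNA say nothing of protein or of lipid peroxidation.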
